A study of Ginkgo biloba with 7 samples.

Results

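Some genes of the Ginkgo biloba ovule are listed as targets of microRNAs (miRNAs) from more than 1 family. They are described here as a set of 84 genes, out of 902 genes in the list of miRNA targets deposited for a mix of ovules at 2 stages. A gene was a member if the list paired it with 2 or more families. A family was the number after miR, or the whole name of a predicted miRNA (novel_). Some numbers were counted together by a set rule, whether or not they belong to 1 miRNA family. A gene listed for 2 numbers of the same group thus counted as having 1 family. The miR166 group holds miR165 and miR166. The miR156 group holds miR156, miR157, miR529, miR535 and miR172. The miR159 group holds miR159 and miR319, the miR482 group miR482 and miR2118, and the miR858 group miR828 and miR858. The miR167 group holds miR160 and miR167, the miR408 group miR397, miR398 and miR408, the miR171 group miR164, miR169 and miR171, and the miR168 group miR162, miR168 and miR403. The remaining 818 listed genes had 1 family each and served for comparison.

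The ovules came from several trees of the Fozhi cultivar grown outdoors. Stage PD was the mature ovule while it secreted the pollination drop, and stage PN was the pollinated ovule 1 day after pollination. The labels give 2 RNA-seq samples per stage, of which 1 per stage had an expression column with a name of its own and was used. Each stage also had 1 small RNA library, with 774387 counted small RNA reads in PD and 1129198 in PN. The target list came from another kind of sample, a mix of ovules of both stages, in a series that includes degradome sequencing (sequencing of cleaved RNA ends). No unpollinated ovule of the later day was sampled, so pollination and elapsed time cannot be told apart. The stages were compared without replicates, so differences are between libraries and carry no p-value. In whole ovules, fewer cells of a type and less RNA per cell cannot be told apart.

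Plant miRNAs guide Argonaute proteins to near-complementary sites in messenger RNAs, which are then cleaved or held from translation. Most conserved families are known for 1 class of target, such as HD-ZIP III transcription factors for miR166 or growth-regulating factors for miR396. A transcript that carries sites for unrelated families could be reached by several of them. In flowering plants the TAS3 RNA is known for a pair of miR390 sites, and MYB transcripts for sites of both miR828 and miR858. The files used here pair no gene ID with a name or a product, so the genes are described by the families listed for them, and the tissue was not checked against marker genes.

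Most members were listed for a pair of families. There were 67 genes with 2 families, 15 with 3, 1 with 5 and 1 with 9. Together they made up 9.31% of the listed genes. The families were usually listed through 1 miRNA name each, since 67 members had exactly as many names as families, and 53 members had 2 names in all.

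The gene with 9 families, Gb_33187, was paired with 11 miRNA names. Its families were miR1030, miR394, novel_4, novel_39, novel_40 and the miR167, miR166, miR408 and miR482 groups. It was hardly expressed, at 0.150 FPKM in PD and 0.552 in PN, where FPKM counts sequenced fragments relative to the length of the gene and the size of the library. The gene with 5 families, Gb_15645, was listed for miR1030, miR390, miR394 and the miR156 and miR167 groups, and stood at 73.6 FPKM in PD and 42.8 in PN. Both genes were listed for miR1030, miR394 and the miR167 group.

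The 15 genes with 3 families spanned the range from silent to abundant. Gb_30905, listed for miR396 and the miR408 and miR858 groups, was at 0 FPKM in both libraries. Gb_24884 (miR390, miR396 and the miR408 group) was at 1.18 FPKM in PD and 0.730 in PN, and Gb_28982 (miR476, miR8175 and the miR408 group) at 2.18 and 1.73. Gb_29041 (novel_2, novel_5 and the miR482 group) had 4.48 FPKM in PD and 2.65 in PN. These 4 genes lay far below the other genes with 3 families, which ranged from 21.7 FPKM upwards.

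In the middle of the range, Gb_29261 (miR5139, novel_39 and the miR408 group) was at 27.0 FPKM in PD and 21.7 in PN. Gb_21791, listed for miR845, miR1511 and miR8155, was at 32.0 and 36.2 FPKM. Gb_13680 (miR396, novel_9 and the miR167 group) was lower in PN, at 41.9 and 24.6 FPKM. Gb_10462 (miR396, miR4414 and miR5139) and Gb_04855 (miR476, novel_39 and the miR408 group) had higher values in PN, at 57.3 against 103 FPKM and 59.1 against 93.7 FPKM. All 5 were within 2-fold between the libraries.

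At the upper end, Gb_20443 (miR396 and the miR156 and miR482 groups) was at 91.0 FPKM in PD and 138 in PN. Gb_27908 (the miR166, miR167 and miR482 groups) was at 237 and 433 FPKM. Gb_36191 (novel_2 and the miR166 and miR482 groups) was at 324 and 577 FPKM, and Gb_02715 (miR396, miR399 and the miR156 group) at 448 and 557 FPKM. All 4 had the higher value in PN and stayed within 2-fold. The last 2 genes with 3 families, Gb_04376 and Gb_24945, exceeded 2-fold and are given with the stage comparison.

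Sharing was spread over many families. Of the 62 families in the list, 40 took part, 28 of them with a miR number and 12 predicted. The other 22 families shared no gene. The miR482 group, which in other plants targets transcripts of NBS-LRR resistance proteins, had the most members at 18 of its 76 genes (23.7%). It was followed by the miR166 group with 15 of 52 genes (28.8%), miR396 with 15 of 99 (15.2%) and the miR156 group, which sets phase change and floral identity, with 14 of 75 (18.7%). These 4 families together touched 51 of the 84 members.

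**Figure D1:**
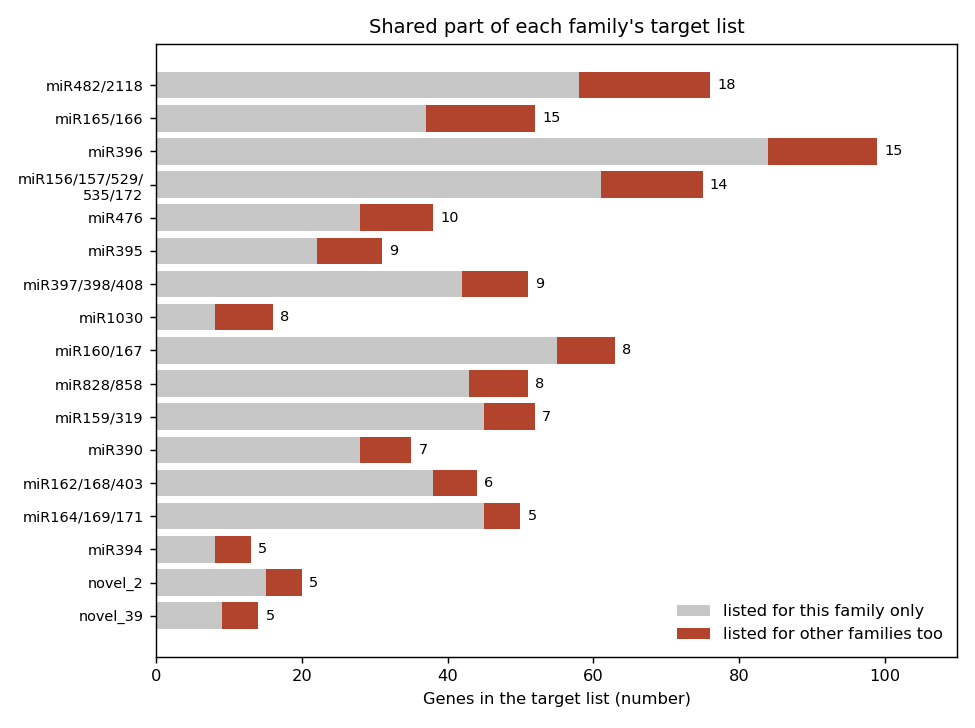
Genes in the target list (number, horizontal axis) for the 17 miRNA families with 5 or more shared genes (vertical axis, grouped as defined in the text). Grey bars count genes listed for that family only, red bars genes listed for other families too, and the figure beside each bar is the red count, from 18 for the miR482 group to 5.

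The shared part of a list was not in step with its length. The list of miR1030, first known from mosses, was shared for 8 of 16 genes (50%), that of miR394, which in Arabidopsis targets an F-box transcript, for 5 of 13 (38.5%), and that of novel_39 for 5 of 14 (35.7%). Among shorter lists, 4 of the 6 genes of miR5139 were shared. At the other end, the miR171 group shared 5 of 50 genes (10%), the miR167 group, known for auxin response factors, 8 of 63 (12.7%), and the miR159 group, known for MYB and TCP factors, 7 of 52 (13.5%). The miR482 group was also listed beside the widest range of partners, 18 families, against 17 for the miR166 group, 16 for the miR167 group and 15 each for miR396 and the miR408 group. The ranking rested on Gb_33187, through which alone the miR482, miR166, miR167 and miR408 groups, but not miR396, had some of their partners. Without those partners the miR482 group was level with miR396.

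No pair of families dominated. In all, 123 pairs of families shared a gene, of which 99 shared exactly 1 gene, 17 shared 2 and 7 shared 3 or more. Gb_33187 alone carried 36 pairs, and 99 pairs remained without it. The pair with the most genes was the miR482 group with the predicted miRNA novel_2, with 5 genes, which were 6.58% of the list of the miR482 group and 25% of that of novel_2. All 5 members of novel_2 were thus genes of the miR482 group. No miRNA sequences were at hand, so whether a predicted miRNA is related to a family listed beside it was not tested.

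These 5 genes differed widely in level. Gb_36191 and Gb_32677 were abundant, the latter at 190 FPKM in PD and 317 in PN. Gb_08988 was low at 2.40 and 2.64 FPKM, Gb_29041 at the values given above, and Gb_26190 was at 0.0200 FPKM in PD and listed at 0 in PN. Genes of this pair therefore had no common level.

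Next came 2 pairs with 4 genes each. The miR166 and miR482 groups shared Gb_10910, Gb_27908, Gb_33187 and Gb_36191 (7.69% and 5.26% of their lists). The miR408 group, whose families respond to copper, shared 4 genes with novel_39, which were 7.84% and 28.6% of the lists. The pairs with 3 genes were miR1030 with the miR166 group, miR390 with the miR156 group, and miR396 with the miR156 group and with the miR408 group. The 3 genes of miR396 and the miR156 group were all abundant, from 91.0 to 448 FPKM in PD and from 138 to 557 FPKM in PN. The 3 genes of miR1030 and the miR166 group were all low, with at most 1.78 FPKM in either library.

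**Figure D2:**
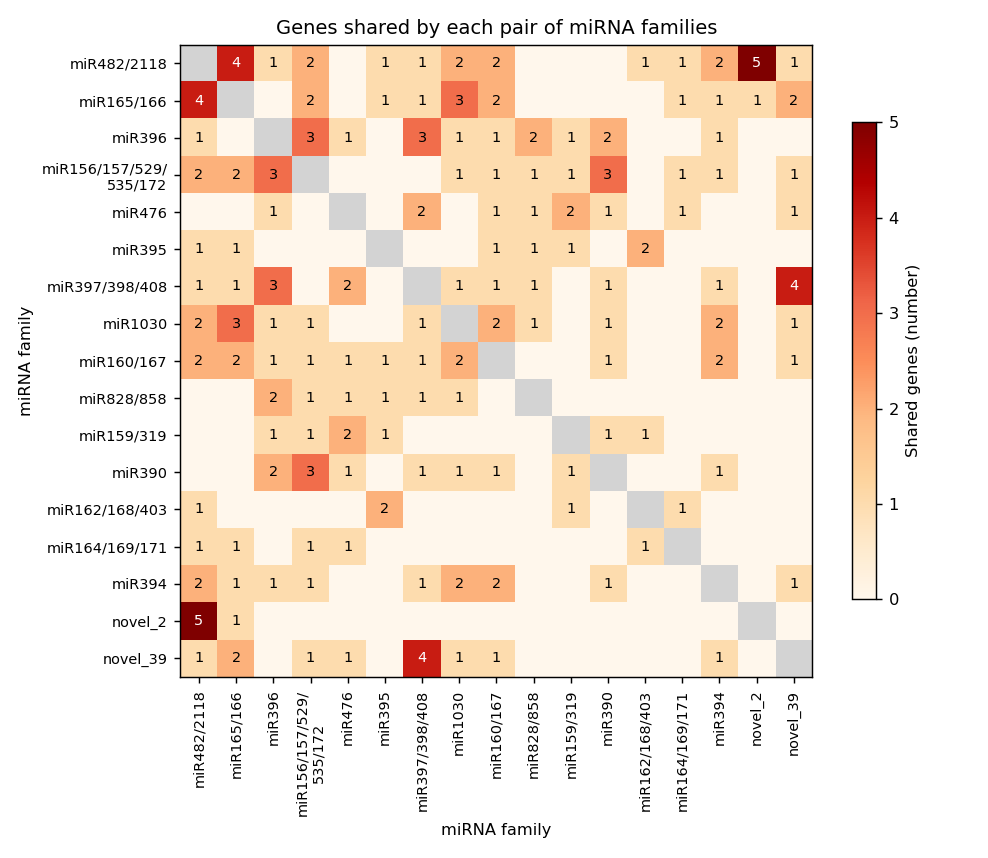
Number of genes shared by each pair of the 17 miRNA families with 5 or more members (both axes: families, colour and figure: shared genes, blank: none, grey: the family itself). The darkest cells are the miR482 group with novel_2 at 5 genes, and the miR166 group with the miR482 group and the miR408 group with novel_39 at 4 genes each.

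Many of the families that shared genes were scarce in the small RNA libraries. Of the 40 families, 23 had at least 50 reads over both libraries and 17 had fewer. The family with most reads was the miR166 group, with 614646 reads in PD and 910943 in PN. The miR482 group, which had the most members, had 39 reads in PD and 108 in PN. Reads may be counted under several names, since names such as ath-miR858a and ath-miR858b have the same counts (216 and 506), so family sums are upper values. By family, 46 members had at least 2 families of 50 reads, 34 had 1 and 4 had none.

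The names through which members were listed had fewer reads still. Of the 107 miRNA names listed for members, 63 had under 50 reads over both libraries. The name with most members was hbr-miR476, listed for 10 members with 0 reads in PD and 1 in PN, where a count of 0 allows up to 3 reads. It was followed by hbr-miR396a with 8 members (1 and 4 reads) and gra-miR482 with 7 (5 and 10 reads). In flowering plants miR476 is known from poplar.

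For several families the abundant name was listed for no member. All 7 miR390 members were listed through 3p names, the strand opposite to the usual miR390. These were ath-miR390b-3p with 4 members (1 and 18 reads), stu-miR390-3p with 2 (1 and 0 reads) and ptc-miR390d-3p with 1 (86 and 847 reads). None was listed through atr-miR390.1, the most abundant name of that family (2498 and 4091 reads). Likewise ath-miR396b-5p, with 7074 and 14260 reads, was listed for none of the 15 miR396 members. In other families the most abundant name was listed for members. In the miR166 group gma-miR166u (136538 and 203966 reads) was listed for 2 members, and cpa-miR166e (90353 and 137632 reads) for 5. In the miR858 group ath-miR858a (216 and 506 reads) was listed for 4 members, and in the miR482 group gma-miR2118a-3p (12 and 33 reads) for 3.

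Read support per pair of a name and a gene was somewhat lower in members than in genes with 1 family. Of the 216 pairs of members, 35.2% rested on a name with at least 50 reads, against 43.1% of the 868 pairs of genes with 1 family. The median over pairs, in which a name counts once per gene, was 15 reads in the first and 26 in the second. When the list was read through names with at least 50 reads, 10 genes kept 2 or more families.

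Those 10 genes, picked after their values were seen, were mostly well expressed. Gb_02738 was listed for osa-miR166m and novel_33, with 338 FPKM in PD and 409 in PN. Gb_27908 was listed for cpa-miR166e and osa-miR167d-5p, and Gb_36191 for ath-miR165a-3p and novel_2. Gb_28325 was listed for gma-miR6300 and novel_36, with 716 and 1091 FPKM. Gb_15645 was listed for bna-miR167d and ath-miR394a. All of these were above 40 FPKM in both libraries.

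The other 5 of the 10 were more varied. Gb_34642, listed for osa-miR159e and ath-miR168a-5p, was at 79.9 FPKM in PD and 56.4 in PN. Gb_26865 was listed for zma-miR162-3p and htu-miR171a, and Gb_17945 for gma-miR167h and novel_17. Gb_29041 kept novel_2 and novel_5, and Gb_33187 kept 5 families through 6 names. Over the 10 genes the median was 158 FPKM in PD and 83.3 in PN, with 5 genes higher and 5 lower in PN. The higher genes include Gb_33187, which fell below the mean of 1 FPKM set for the stage comparison. Of all compared genes, 56.9% were higher in PN.

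In both libraries, members had somewhat higher levels than genes listed for 1 family. The median member was at 44.1 FPKM in PD and 50.1 in PN, against 30.4 and 33.1 FPKM for the 818 genes with 1 family. On the log2(FPKM + 1) scale the medians were higher by 0.52 in PD and 0.58 in PN. The middle range was wide. Members ran from 14.2 to 161 FPKM between quartiles in PD and genes with 1 family from 9.24 to 87.2 FPKM, so the groups overlapped over most of their range. Within the 17 families with 5 or more members, the members' median FPKM was above that of genes listed for the family alone in 11 families in PD and 9 in PN. A mean of at least 100 FPKM was reached by 32 members (38.1%), 178 genes with 1 family (21.8%) and 1738 of all 43456 genes (4.0%). Listed genes of either kind thus stood far above the median of all genes, 0.716 FPKM in PD and 0.829 in PN. The list itself came from ovules of these stages, and whether a gene's level affected its being listed was not tested.

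The higher level was not graded by the number of families. Genes with 2 families had medians of 45.5 FPKM in PD and 52.1 in PN, and genes with 3 or more families 41.9 and 42.8 FPKM. Genes listed for 1 family but through 2 or more names, 42 in number, had medians of 37.8 and 46.5 FPKM. These lay between the medians of all genes with 1 family and those of all members. Against these 42 genes the members' medians were higher by 0.22 in PD and 0.10 in PN on the log2 scale. When families under 50 reads were left out of the list, the 46 genes with several families differed from the 703 genes with 1 family by 0.023 in PD and by -0.23 in PN. The 38 members that this left with fewer than 2 families had medians of 58.2 FPKM in PD and 71.1 in PN, against 31.1 and 28.5 FPKM for the 46 genes.

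**Figure D3:**
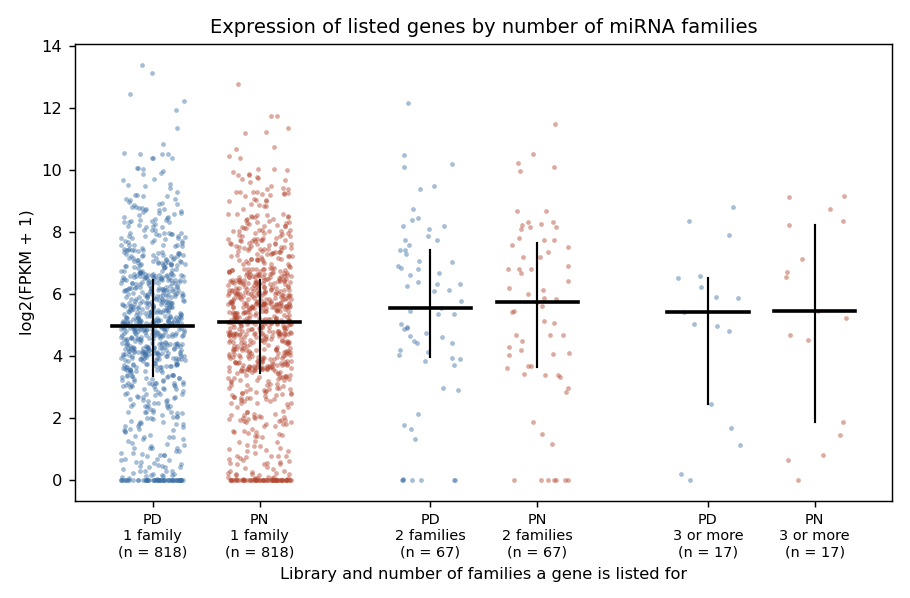
Expression of listed genes as log2(FPKM + 1) (vertical axis) in the PD (blue) and PN (red) libraries, by the number of miRNA families a gene is listed for (horizontal axis, with the number of genes). Each point is a gene, the thick bar is the median and the thin line spans the quartiles. The medians of genes with 2 families lie above those of genes with 1 family, and the quartiles overlap.

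Silent genes were found among the members as well. Both libraries listed 7 members (8.33%) at 0 FPKM, against 51 genes with 1 family (6.23%). Over all genes the share was 33.8%. Of these 7 genes, 3 each belonged to the miR858 group (Gb_14742, Gb_30905 and Gb_37634), the miR156 group (Gb_03325, Gb_17572 and Gb_37634) and the miR166 group (Gb_17572, Gb_22835 and Gb_24472), of 8, 14 and 15 members. Apart from Gb_30905, these IDs were picked after their values were seen. The table gives no read number, so how many fragments a value of 0 allows is unknown.

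The 5 members with the highest mean FPKM over both libraries each had 2 families. Gb_23731, listed for miR1448 and the miR167 group, was at 4608 FPKM in PD and 2876 in PN. It was followed by Gb_37442 (miR395 and the miR168 group), with 1165 and 1481 FPKM, and Gb_19041 (miR1083 and novel_32), with 1436 and 1198 FPKM. Gb_28325 came next at the values given above, and Gb_17170 (miR390 and miR396) was at 673 and 1000.5 FPKM. All 5 were within 2-fold, with 2 lower and 3 higher in PN. In PD alone Gb_36678, at 1087 FPKM and lower in PN, stood above Gb_28325 and Gb_17170. For 4 of them a listed name had hardly any reads: ptc-miR160h had 1 and 2 reads, novel_32 had 0 and 1, ata-miR395b-3p had 0 and 1, and ath-miR390b-3p had 1 and 18.

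Few members differed by 2-fold between drop secretion and the day after pollination. Genes with a mean of at least 1 FPKM were compared, which 74 of the 84 members (88.1%) and 723 of the 818 genes with 1 family (88.4%) passed. Of the 74, 4 were at least 2-fold higher in PN (5.41%) and 4 at least 2-fold lower (5.41%), while 66 were within 2-fold. Over all 21308 compared genes, 9.27% were higher and 6.86% lower by the same rule. Among genes with 1 family, 8.02% were higher and 7.61% lower. The members' median difference was 0.034 on the log2(FPKM + 1) scale, against 0.068 for genes with 1 family and 0.11 for all compared genes. It was -0.082 after median-of-ratios rescaling, which puts the median of all compared genes at 0.00322.

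The 4 genes at least 2-fold higher in PN had no family common to all. Gb_04376, listed for miR394, miR5077 and the miR482 group, was at 30.6 FPKM in PD and 300.4 in PN, 9.55-fold higher on the FPKM + 1 scale, as are all folds below. Gb_23185, listed for vvi-miR845a (1 and 3 reads) and gma-miR166u, was at 40.0 and 287 FPKM, 7.02-fold higher. In Arabidopsis miR845 is known to act on retrotransposons in pollen, and a link to this gene was not tested. The other 2 were Gb_24945 (novel_39 and the miR156 and miR166 groups), at 95.8 and 324 FPKM (3.36-fold), and Gb_10910 (the miR166 and miR482 groups), at 31.6 and 102 FPKM (3.16-fold). Of these 4 genes, 3 were listed for the miR166 group and 2 for the miR482 group, which have 15 and 18 of the 84 members.

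The 4 lower genes had no common family either, and the largest decrease was in a gene of the miR166 group. That gene, Gb_36678, listed for ath-miR166a-5p and cpa-miR8155, was at 1087 FPKM in PD and 303 in PN, 3.58-fold lower. Gb_26865, listed for zma-miR162-3p and htu-miR171a, was at 290 and 110 FPKM, 2.61-fold lower. Gb_17945 (the miR167 group and novel_17) was at 79.1 and 32.2 FPKM (2.41-fold), and Gb_40285 (miR390 and the miR156 group) at 23.9 and 9.51 FPKM (2.37-fold). The IDs of Gb_10910, Gb_17945 and Gb_40285 were given here after their values were seen.

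**Figure D4:**
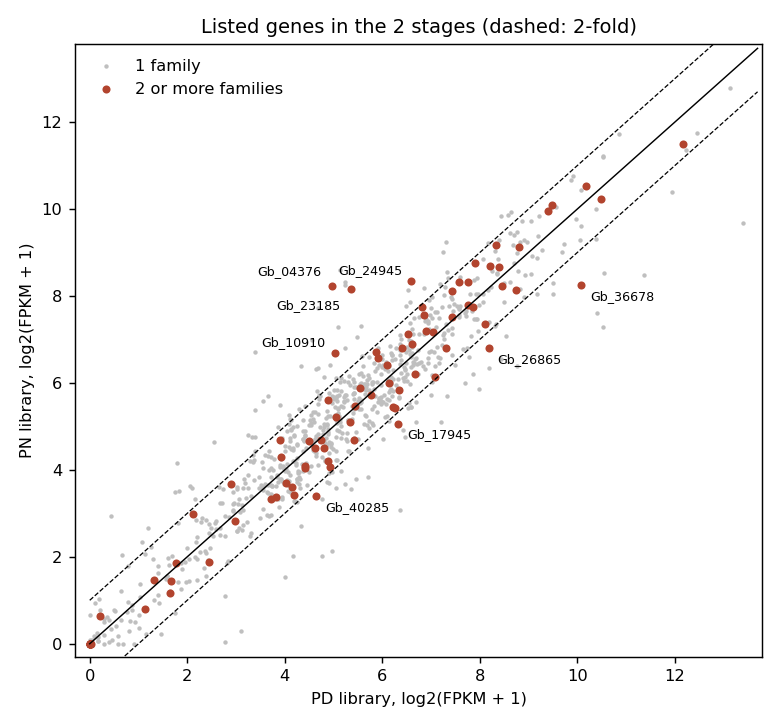
log2(FPKM + 1) in the PD library (horizontal axis) and the PN library (vertical axis) for genes listed for 1 family (grey) and for 2 or more families (red). The solid line is equality and the dashed lines 2-fold differences, and the 8 labelled members are those beyond 2-fold.

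The direction of a member's difference varied with the family it was listed for. In the miR482 group, 12 of the 15 compared members were higher in PN, with a median of 0.73 on the log2 scale. The 44 compared genes listed for the miR482 group alone had the opposite balance, with 14 higher in PN and a median of -0.29. All names of this group had few reads, with 12 and 33 for the most abundant. In the miR166 group 8 of 11 members were higher, with a median of 0.40, against 14 of 35 genes and a median of -0.18 for those listed for it alone. Of all compared genes, 56.9% were higher in PN. After median-of-ratios rescaling the counts were 12 of 15 and 11 of 44 in the miR482 group, and 8 of 11 and 14 of 35 in the miR166 group.

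These families have genes in common, and 3 compared genes, all higher in PN, belonged to both groups. Without them, 9 of 12 members of the miR482 group were higher (median 0.53) and 5 of 8 members of the miR166 group (median 0.21). Members of the miR482 group without miR166 ranged from -0.59 to 3.26. They included Gb_33902 at 28.7 FPKM in PD and 48.1 in PN, Gb_09287 at 14.0 and 24.8 FPKM, Gb_29476 at 3.37 and 6.86 FPKM and Gb_02225 at 294 and 410 FPKM, all within 2-fold. These 4 were picked after their values were seen.

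Other families leaned the other way. In the miR167 group 1 of 7 members was higher in PN, with a median of -0.74, against 24 of 46 genes and a median of 0.062 for those listed for it alone. In miR394 the contrast was 1 of 4 members against 7 of 8 genes, with medians of -0.27 and 0.89. The higher member of miR394 was Gb_04376, which had the largest increase of all members, and the lower ones were within 2-fold. In the miR171 group the contrast was 1 of 4 against 18 of 39, and in the miR168 group 2 of 6 against 22 of 37. In miR396 6 of 13 members were higher, against 51 of 78. These lists are short, overlap and come from 1 library per stage, so the contrasts are descriptions of these libraries. Rescaling left the signs of the members' medians as they were in the miR482, miR166, miR167, miR171 and miR168 groups, miR394 and miR396. Among genes listed for 1 family it turned the median of the miR167 group to -0.021, and the genes higher in PN numbered 43 of 78 for miR396 and 14 of 39 for the miR171 group.

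**Figure D5:**
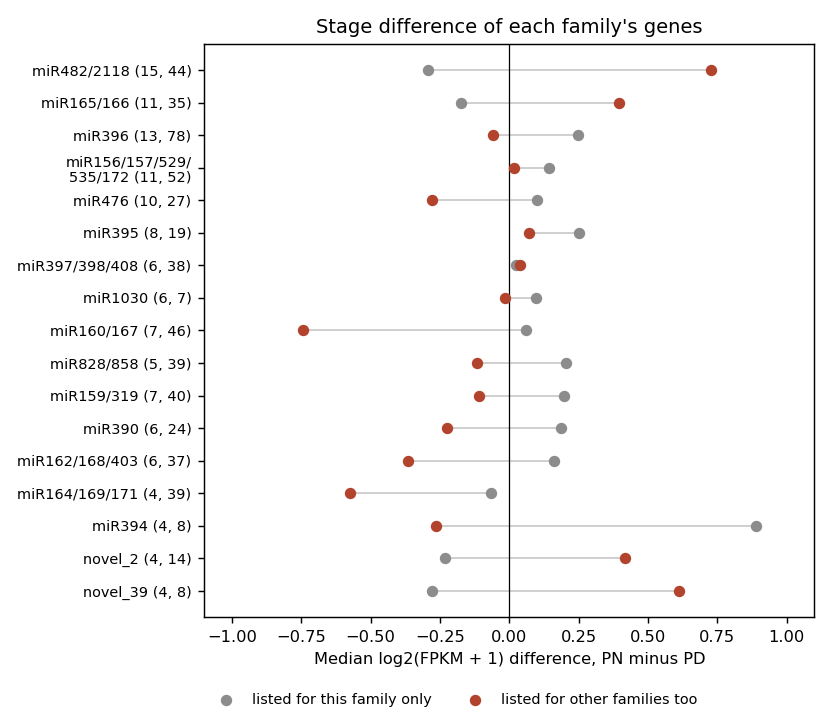
Median difference between the stages in log2(FPKM + 1), PN minus PD (horizontal axis), for the 17 miRNA families with 5 or more members (vertical axis). Red points are genes also listed for other families, grey points genes listed for that family only, and the numbers in brackets give the compared genes in that order. In the miR482 group the red point lies at 0.73 and the grey at -0.29, and in the miR167 group at -0.74 and 0.062.

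Most families that shared genes differed in their share of small RNA reads between the libraries by less than 2-fold. Of the 23 families with at least 50 reads, 4 had a 95% interval of the read ratio that included equal shares, 14 differed within 2-fold and 5 beyond it. Higher in PN were novel_33 (7 and 92 reads, 9.01-fold, interval 4.20 to 23.0), novel_17 (49 and 292 reads, 4.09-fold, 3.01 to 5.65) and novel_36 (11 and 40 reads, 2.49-fold, 1.26 to 5.39). Lower were the miR408 group (1601 and 1147 reads, ratio 0.491, 0.455 to 0.530) and miR6478 (1128 and 724 reads, ratio 0.440, 0.400 to 0.484). When identical counts within a family were counted a single time, the ratio of the miR408 group was 0.502, within 2-fold, and 4 families remained beyond it. The miR482 group had a ratio of 1.90 (1.31 to 2.81), miR396 of 1.25 (1.23 to 1.27) and the miR167 group of 0.836 (0.822 to 0.850). These intervals cover counting error only, and reads counted under several names make them too narrow.

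Set beside these ratios, the genes went either way (Gb_35997, Gb_05082 and Gb_04916 were picked after their values were seen). The 3 members of novel_33 were Gb_02738, higher in PN, Gb_35997 at 45.5 and 58.0 FPKM, and Gb_05082 at 12.1 and 9.03 FPKM. The member of novel_17 was Gb_17945, at least 2-fold lower, and that of novel_36 was Gb_28325, higher within 2-fold. The member of miR6478, Gb_04916, was listed for the miR168 group too and was at 76.2 FPKM in PD and 41.9 in PN. Of the 6 compared members of the miR408 group, 3 were higher in PN. In the miR482 group the members' median and the family's reads were both higher in PN, and in the miR167 group both were lower. They differed in direction in the miR858 group (read ratio 1.59, members' median -0.12), miR390 (1.195 and -0.22) and miR396 (1.25 and -0.060). Genes listed for the miR482 group alone had a median of -0.29 beside the same reads. All these ratios are of whole families, while no member of miR390, miR396 or the miR167 group was listed through its most abundant name. In the miR167 group that name was ath-miR167d (5288 and 6215 reads). Its members were listed through names such as osa-miR167d-5p (2920 and 3316 reads) but also ptc-miR160h (1 and 2 reads). In the miR482 group even the most abundant name, gma-miR2118a-3p, had 12 and 33 reads. The miR390 names listed for members had 86 and 847 (ptc-miR390d-3p), 1 and 18 (ath-miR390b-3p) and 1 and 0 reads (stu-miR390-3p) in PD and PN.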

How the data were processed

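The material comprised RNA-seq and small RNA, used as 1 library each per stage, and a list of targets. The authors deposited gene values as FPKM, per the file headers; TopHat2 2.0.12 and Cufflinks 2.1.1 are named in the submitters' processing notes without a role, and the genome build is not given in the sources used here. Of 4 FPKM columns, 2 carry the same name and were not used, because the name does not tell their samples apart. Low values gave a relative depth of 1.18 (PN over PD), with 63.8% of 2379 genes under 0.5 FPKM within 1% of ratios of whole fragments. Small RNA values were deposited as read counts per miRNA name, per the file headers, without normalization. The target list holds 1092 rows, of which 8 repeat another, and no score.

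Families were merged as stated in the report, and 1084 pairs were counted. Differences are log2(FPKM + 1), PN minus PD, for genes with a mean of at least 1 FPKM. A difference of at least 1 (2-fold) was counted; no test is possible with 1 library per stage. Read ratios are of shares of all counted reads, with exact Clopper-Pearson 95% intervals. Named genes were those with 3 or more families, the 5 with the highest mean FPKM, the 2 largest differences each way and the genes of the commonest pair; others are marked. The members, families and lists were chosen with earlier results of these data known. A value was taken as moved when it changed by over 1.5 times. Python 3.11.15, pandas 2.3.3 and SciPy 1.17.1 were used, and counting, folds and intervals were tested on simulated data.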

Additional observations from a re-analysis of the deposited data

How the results depend on the processing

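No paired analysis was possible because just 1 expression column of each stage had a usable name, which also meant that leaving out a library was not run. Reading the list by names of 50 reads, and counting miR170 with the miR171 group, were chosen after seeing the data. The number of members was 95 with each number as its own family and 68 without predicted miRNAs. It was 46 with families of at least 50 reads and 10 with names of at least 50 reads. Among those 10 genes the commonest pairs shared 2 genes: the miR167 group with the miR166 group, and the miR167 group with miR394. The difference in level from genes with 1 family was 0.89 in PD with a mean of at least 1 FPKM, and 2.09 in PD and 1.24 in PN with names of at least 50 reads (10 genes). It was 0.023 in PD and -0.23 in PN with families of at least 50 reads, so the direction turned in PN, and 0.22 in PD and 0.10 in PN against genes with 2 or more names; the cause was not tested. The median stage difference was 0 without a filter, 0.052 with at least 5 FPKM, 0.069 with each number as its own family, -0.082 after median-of-ratios rescaling and -0.084 with families of at least 50 reads, so its sign is not fixed. Members beyond 2-fold numbered 6 to 9 under all 6 settings, but the number of compared genes changed too. With families of at least 50 reads the 6 were of 38 compared genes, 7.89% higher and 7.89% lower. These shares were near those of all compared genes, 9.27% and 6.86%, whereas the main setting had 5.41% each of 74 members. Families beyond 2-fold in reads numbered 11 with at least 10 reads, and 4, without the miR408 group, with identical counts taken a single time.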
